A study of Aspergillus nidulans with 6 samples.

Results

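The comparison described here is that of untreated 3-day-old with untreated 2-day-old conidia, the asexual spores, of the filamentous fungus *Aspergillus nidulans*, read from ChIP-seq peak lists of the transcription factor AtfA. Its members are 683 genomic regions, made by merging the peaks of the 4 untreated lists wherever they overlapped by 1 bp or more, and 707 regions result when all 6 lists of the series are merged in the same way. The groups were Untr. (2 d) and Untr. (3 d), with 2 libraries each. The remaining 2 libraries, MSB Tr. (3 d), came from 3-day-old conidia exposed to 0.04 mM MSB (menadione sodium bisulphite, an oxidative stress agent). They enter no test, and their peaks are only counted at the untreated regions.

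All libraries came from the strain *atfA*::3XFLAG, in which the native *atfA* gene is deleted (Δ*atfA*::*AfupyrG*+) and a FLAG-tagged copy (*atfA*-3XFLAG::*pyroA*+) is expressed from *atfA*'s own promoter with a *trpC* terminator, on a *pyrG89*; *pyroA4*; *veA*+ background. Conidia were taken from surface cultures on NMM agar plates, cross-linked with formaldehyde and precipitated with an anti-FLAG antibody. The strain is a complemented mutant, so both ages share the tag and the deletion. The labels do not say whether the 2 replicates of an age came from separate cultures, so p-values measure only the spread between these libraries, which may be technical. Peak names inside the lists begin with one prefix in the Untr. (2 d) and MSB Tr. (3 d) lists and with another in both Untr. (3 d) lists. What the prefix records is not given in the sources used here, and for the untreated lists it cannot be told apart from age.

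AtfA is a basic leucine zipper factor of the ATF/CREB family, the relative of Atf1 in fission yeast, and such factors bind the CRE element and its variants as dimers. In Aspergilli it acts below the HogA/SakA stress-activated MAP kinase and is known for its part in the stress tolerance and dormancy of conidia. Conidia leave the plate with stored trehalose and polyols, protective proteins and transcripts laid down while they formed, which is why binding in the resting spore is of interest as it ages.

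The lists held 473 and 434 peaks at 2 d and 473 and 451 peaks at 3 d, for replicates 1 and 2 of each age. Numbers of peaks therefore overlapped between ages (difference of means 8.5 peaks, exact permutation test, two-sided p = 1, where 0.333 is the smallest p that 2 libraries against 2 can give). Each peak has a start, an end, a summit and a score, and the score was used only as a percentile within its own list, where 100 is the best-scored peak. The highest score was 10.9 and 9.68 times the lowest in the 2 d lists and 9.87 and 6.85 times in the 3 d lists, so raw scores were not set against each other. The lists carry no read counts. Depth is therefore unknown, no interval for counting error can be given, and a region without a peak is one without a listed peak rather than one shown to lack AtfA.

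The strongest AtfA regions were held by conidia of both ages. Of the 683 regions, 263 (38.5%) had a peak in all 4 lists, and 435 (63.7%) had a peak in at least 1 list of each age. Of the 312 regions that both 2 d lists held, 84.3% were also in both 3 d lists, and of the 352 that both 3 d lists held, 74.7% were also in both 2 d lists. In each of the 4 lists 99 of the 100 best-scored peaks lay in regions of all 4 lists, and of the 100 lowest-scored peaks 17 and 23 did so at 2 d and 18 and 20 at 3 d. Regions found in 1 list only numbered 214, and these had a median percentile of 15.5 against 67.7 for regions in all 4.

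**Figure D1:**
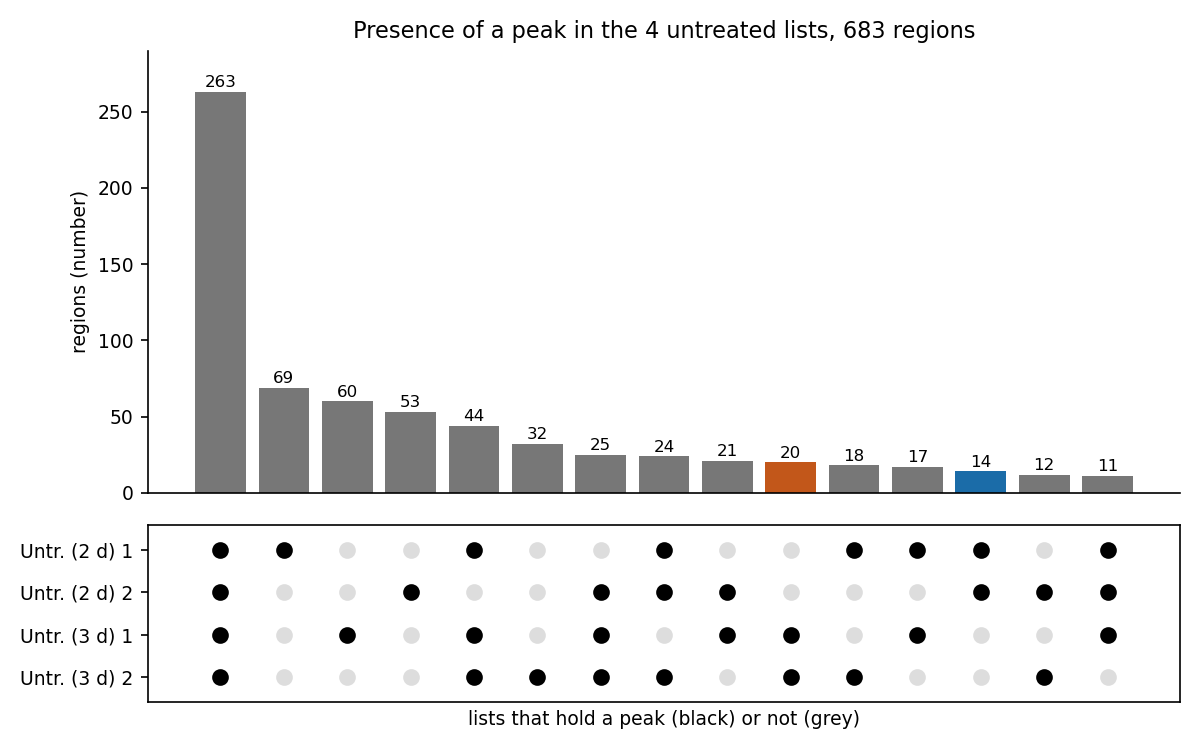
Number of regions (vertical axis) for each combination of untreated lists with a peak, with black dots below each bar marking the lists that hold one. The 263 regions of all 4 lists form the tallest bar, and the regions of both 2 d lists only (blue, 14) and of both 3 d lists only (orange, 20) are as few as those shared by 1 list of each age and no other (12 to 21).

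Libraries of the same age shared no more peaks than libraries of different ages. The 2 d pair shared 70.7% of peaks and the 3 d pair 78.3%, where each value is the mean of both directions. The 4 pairs of different age shared 72.3%, 77.4%, 72.7% and 75.5%. The 2 d pair thus had the lowest share of all 6 pairs and the 3 d pair the highest, with the pairs of different age between them. The mean was 74.5% ± 5.40 (SD, n = 2 pairs) within an age and 74.5% ± 2.43 (SD, n = 4 pairs) between ages, a difference of -0.001 percentage points (exact permutation test over the 3 ways to pair 4 libraries, one-sided p = 0.667, smallest possible 0.333). The sign of the difference depended on single libraries. It was 4.20 points without 2 d replicate 1, 3.43 without 2 d replicate 2, -5.80 without 3 d replicate 1 and -1.83 without 3 d replicate 2.

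The rank order of the regions was also compared. Over the 263 regions of all 4 lists, the Spearman correlation of the percentile was 0.575 between the 2 d lists and 0.834 between the 3 d lists, and 0.572, 0.700, 0.762 and 0.735 between lists of different age. These are correlations across regions, which are not independent replicates, and the regions share each library's depth. The median difference in percentile between a pair of lists was 13.7 points for the 2 d pair, 8.05 for the 3 d pair and 9.56 to 11.8 for pairs of different age. Summits lay a median of 20 to 30 bp apart in every pair, and between 65.7% and 77.1% of the 236 regions with exactly 1 peak per list had summits within 50 bp of each other.

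**Figure D2:**
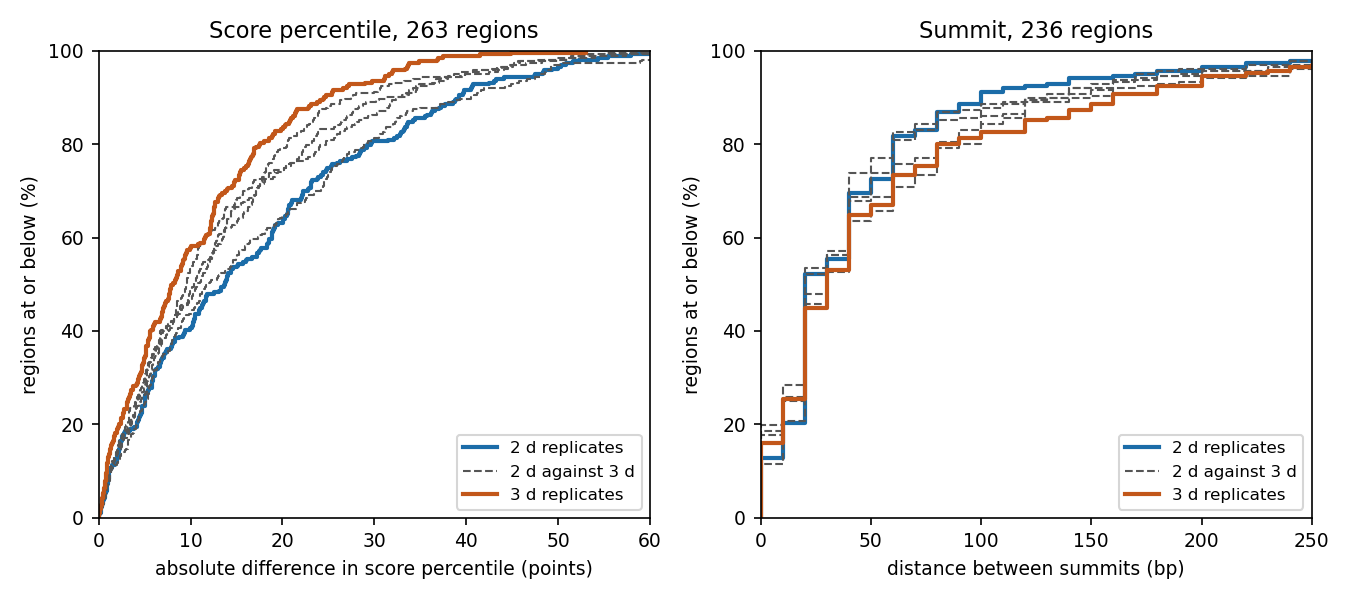
Share of regions (vertical axis, %) whose percentile difference (left, 263 regions) or summit distance (right, 236 regions) between 2 lists was at or below the value on the horizontal axis. In the left panel the 4 pairs of different age (dashed) run between or along the 3 d replicates (orange, median 8.05 points) and the 2 d replicates (blue, median 13.7 points); in the right panel all 6 pairs have medians of 20 to 30 bp.

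Few regions followed age in both replicates. A peak was present in both 2 d lists and in neither 3 d list at 14 regions, and in both 3 d lists and neither 2 d list at 20 regions. For comparison, the 4 combinations of 1 list of each age and no other held 12, 17, 18 and 21 regions. The age-specific regions were mostly low in their lists. Percentiles of the 14 regions had a median of 32.0 and 24.1 in the 2 d lists, with 3 regions above the 50th percentile in each, and those of the 20 regions a median of 28.0 and 16.1 in the 3 d lists, with 1 and 2 above it. With a list left out a region had to be held and missed by fewer lists, and both counts rose. The 2 d count was 67 without 2 d replicate 1, 87 without 2 d replicate 2, 25 without 3 d replicate 1 and 38 without 3 d replicate 2, and the 3 d count was 64, 45, 54 and 82 in the same order.

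Genes were tied to regions through the promoter peaks that the study lists for each gene, and 392 regions (57.4%) were tied to 418 genes. The region among the 14 with the highest mean percentile was tied to *orlA*, which encodes trehalose-6-phosphate phosphatase, the enzyme of the last step of trehalose synthesis, and to its neighbour AN3442 (chromosome VI, 708061–708660). It stood at percentile 46.5 in 2 d replicate 1 and 50.1 in 2 d replicate 2, with widths of 360 and 600 bp and the summit at position 708271 in both. No untreated 3 d peak was listed within 27300 bp of it, whereas both MSB Tr. (3 d) lists had a peak on it. A region of *cycA*, which encodes cytochrome c of the respiratory chain, was also held at 2 d only (chromosome I, 770061–770380), at percentiles 9.41 and 21.0, near the low end of both lists. That of *fimA*, the gene of the actin-bundling protein fimbrin (chromosome I, 2195821–2196120), stood at 28.0 and 50.1. The region of AN5764, annotated as induced by light in competent mycelia (chromosome V, 1772541–1772980), stood at 41.0 and 53.1. The 2 replicates differed widely at AN7018 (77.1 and 12.1) and AN3180 (51.4 and 4.95), and AN3180 had a 3 d peak as near as 180 bp. AN5512 stood at 36.0 and 44.9 and AN6995/AN6996 at 50.6 and 14.3. The other 3 named by their percentile carry no tied gene and lay on chromosomes III (374321–374580; percentiles 15.9 and 46.0), VIII (3505421–3505720; 28.0 and 27.3) and VI (738041–738520; 11.5 and 36.3), the last with a 3 d peak 480 bp away.

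Of the 20 regions held at 3 d only, that of AN11378, a gene of no named function, was the best-scored, at percentiles 46.2 and 72.2 in 3 d replicates 1 and 2 (chromosome VI, 1461621–1461920). Its neighbour on the same chromosome, tied to AN3210, which has a predicted transmembrane transporter domain (1464281–1464540), was also held at 3 d only and stood at 36.6 and 25.4. AN1578 was the region whose replicates were both above the 50th percentile, at 59.7 and 56.8 (chromosome VII, 1237181–1237620). The summit of AN1578 was at 1237411 in both replicates, and the nearest 2 d peak lay 84720 bp away. AN2884 stood at 38.5 and 24.3, AN9100 at 31.5 and 29.4 and AN3022 at 24.0 and 25.4. Regions without a tied gene lay on chromosome V (609441–609800) at 38.5 and 48.8, on II (1882481–1882820) at 38.5 and 11.5, on IV (1197881–1198240) at 26.7 and 20.6, and on I (1881181–1881420) at 2.96 and 43.8. None of the 20 was tied to a gene of the conidial, signalling, redox, storage, carbon or membrane lists described below. Only 12 of all 418 tied genes were held at 3 d only, so few such members could be found in lists of this size. The F-box gene *fbxB*, of the autophagy and ubiquitin list, was tied to 1 of the 20 regions. It stood at percentiles 9.94 and 9.98, and its place rests on few listed peaks.

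Distances to the nearest peak of the other age had a median of 20620 bp for the 14 regions and 12980 bp for the 20, and 2 regions in each set had one within 1000 bp. Merging peaks up to 100 bp apart left 14 and 20 regions. Of the 14 regions 10 also carried a peak in at least 1 MSB list and 8 in both, among them *orlA*, *cycA* and *fimA*, while of the 20 regions 6 did so in 1 or more and 3 in both, among them AN11378 and AN1578. Of the 68 regions held by 1 untreated list of each age, 47 carried a peak in at least 1 MSB list and 28 in both. The share at the 14 regions was thus near that of regions that did not follow age. The MSB lists share their naming prefix with the 2 d lists and their age with the 3 d lists, and the part of either in these counts was not tested.

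Within the 263 regions held by all 4 lists, no region passed the test for a change of percentile with age. limma's moderated test with Benjamini-Hochberg adjustment called 0 of 263 regions (0%) at an adjusted p under 0.05. The smallest adjusted p was 0.482, and 21 regions had an unadjusted p under 0.05, of which 10 were higher and 11 lower at 3 d. The median difference over all regions was 0.88 points, with 139 regions higher and 124 lower at 3 d. Both 3 d percentiles were above both 2 d percentiles at 46 regions (17.5%) and below both at 44 regions (16.7%). The values below describe the regions with the largest gaps among these, and each has an adjusted p of 0.482 or more by limma.

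The gap was largest, among regions higher at 3 d, at chromosome VIII, 4509081–4510080, which has no tied gene. Its percentiles were 29.9 and 39.3 at 2 d and 90.7 and 75.2 at 3 d, a difference of 48.3 ± 8.29 points (SE). AN1605, a gene of unknown function, stood at 19.0 and 14.9 at 2 d and at 58.4 and 69.8 at 3 d (chromosome VII, 1325901–1326380), a difference of 47.2 ± 6.60 points. Here the replicates of each age lay closer to each other than the ages did. A region of chromosome IV without a tied gene (745221–745820) stood at 58.0 and 62.4 against 85.3 and 89.5, and AN0833 stood at 22.9 and 40.6 against 72.2 and 55.3. At AN2776 (34.7 and 75.2 against 95.8 and 80.5), chromosome VII, 2587881–2588260 (68.1 and 17.7 against 76.7 and 80.5) and chromosome II, 2528601–2529080 (13.1 and 62.4 against 72.2 and 67.2), the gap between the 2 d replicates was as wide as that between ages. At AN6104 (9.41 and 0.23 against 13.2 and 50.1) the difference rested on 3 d replicate 2.

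Among regions lower at 3 d, AN2471 stood at 58.0 and 78.9 at 2 d and at 9.94 and 26.6 at 3 d (chromosome VII, 4054301–4054820), a difference of -50.2 ± 11.1 points (SE). *ypdA* encodes the histidine-containing phosphotransfer protein that hands the signal of histidine kinases to the HogA pathway. Its region (chromosome VII, 2535641–2536240) stood at 70.1 and 80.4 at 2 d and at 29.2 and 46.1 at 3 d, a difference of -37.6 ± 8.81 points. The next region along the chromosome, without a tied gene (2537321–2538080), stood at 65.2 and 65.7 at 2 d and at 40.7 and 28.6 at 3 d, and its peaks were also narrower at 3 d, with 640 and 740 bp against 500 and 480 bp. Both regions beside *ypdA* were thus lower in both 3 d lists. The region tied to AN0313 and AN0314, the latter a putative aspartyl-tRNA synthetase gene, stood at 63.8 and 57.0 against 35.0 and 1.66. AN0400 stood at 73.2 and 84.8 against 31.5 and 58.8, *awh11* and its neighbour AN11729 at 48.0 and 70.2 against 42.5 and 22.4. Chromosome I, 935461–935860 had 82.8 and 53.1 against 13.2 and 25.4, and chromosome V, 2780061–2781120 had 67.2 and 53.1 against 35.0 and 35.6.

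**Figure D3:**
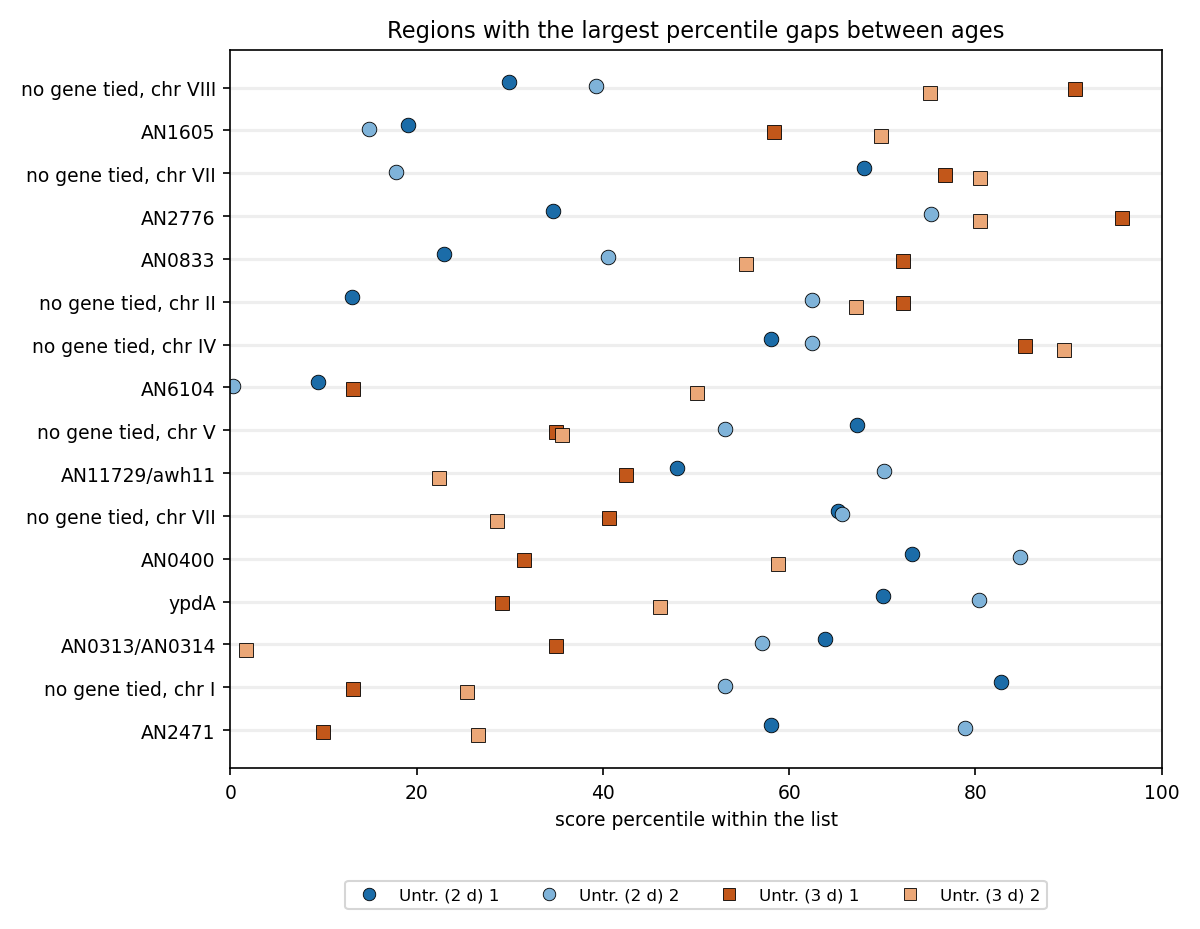
Score percentile within the list (horizontal axis) of the 8 regions with the largest difference toward 3 d and the 8 with the largest toward 2 d among those whose ages did not overlap, with circles for the 2 d and squares for the 3 d libraries. AN1605 and *ypdA* show replicates closer to each other than to the other age, whereas at AN2776 the 2 d replicates lie as far apart (34.7 and 75.2) as the ages do.

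Peaks in the 263 shared regions were wider at the median in both 3 d lists. Their median width was 380 and 420 bp in the 2 d lists and 440 and 460 bp in the 3 d lists (difference of means 50 bp, exact permutation test, two-sided p = 0.333, the smallest the design allows). Over whole lists the medians were 300 and 340 bp at 2 d and 340 and 340 bp at 3 d (difference of means 20 bp, exact permutation test, two-sided p = 1). The 3 d lists covered 184280 and 180920 bp and the 2 d lists 167920 and 172640 bp. Within regions 167 were wider and 94 narrower at 3 d, and the median difference was 0.10 on the log2 scale. It was 0.0060 once each list was centred on its own median, with 134 wider and 129 narrower. The 2 d replicate 1 list, which had the narrowest peaks, carried most of the difference: the median was 0.018 without it, 0.16 without 2 d replicate 2, 0.074 without 3 d replicate 1 and 0.071 without 3 d replicate 2. limma called 0 of 263 regions (0%), the smallest adjusted p was 0.681 and 13 regions had an unadjusted p under 0.05, 12 of them wider. Both 3 d widths exceeded both 2 d widths at 58 regions (22.1%) and fell below both at 26 (9.89%), and after centring these numbers were 48 and 39.

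The 5 largest width differences toward 3 d, ranked in bp among regions whose ages did not overlap, were at regions to which no gene was tied. Chromosome II, 3397621–3398540 measured 440 and 320 bp at 2 d and 740 and 720 bp at 3 d, a difference of 0.96 ± 0.26 on the log2 scale (SE), with overlapping percentiles (89.9 and 73.7 against 84.4 and 83.7). Chromosome III, 22041–23040, which lies beside the spore-specific SpoC1 cluster, measured 200 and 440 bp against 500 and 880 bp. The region of chromosome VIII with the largest percentile gap measured 340 and 320 bp against 440 and 880 bp. Chromosome I, 1249981–1250860 measured 480 and 540 bp against 720 and 880 bp, and chromosome VIII, 456801–457520 measured 300 and 520 bp against 680 and 700 bp. Ranked on the log2 scale, the largest difference was at chromosome VIII, 1515081–1515680, named here after its values were seen, with 220 bp in both 2 d lists and 560 and 440 bp at 3 d (1.17 ± 0.24, SE). In 2 d replicate 2 this region held 2 peaks, and the width is that of the better-scored one. Narrower peaks at 3 d included that of AN6862 and *uncB*, a kinesin-3 motor gene, with 520 and 860 bp against 280 and 460 bp. AN10857/AN6856 measured 500 and 780 bp against 380 and 480 bp, AN2471 320 and 520 bp against 240 and 220 bp, and chromosome V, 2780061–2781120 360 and 820 bp against 280 and 300 bp. The adjusted p of each of these regions was 0.681 by limma.

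**Figure D4:**
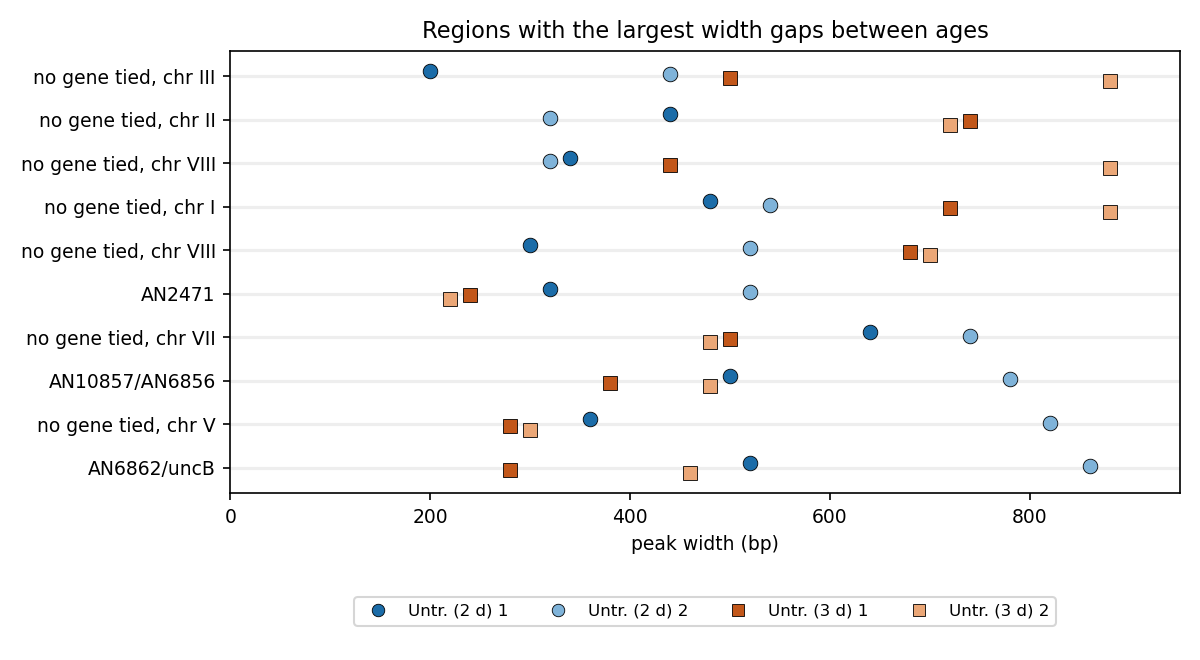
Peak width in bp (horizontal axis) in each library for the 5 regions with the largest difference in bp toward 3 d and the 5 with the largest toward 2 d among those whose ages did not overlap. The region of chromosome II (440 and 320 bp against 740 and 720 bp) has tight replicates at 3 d and no overlap between ages.

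Summits of the ages lay close together at most regions. The mean 3 d and 2 d summits lay a median of 20 bp apart over the 236 regions with 1 peak in each list, 77.5% were within 50 bp and 18 regions were more than 100 bp apart. limma called 0 of 236 regions (0%), with a smallest adjusted p of 0.189 and 7 regions at an unadjusted p under 0.05. Both 3 d summits lay at higher coordinates than both 2 d summits at 25 regions (10.6%) and at lower coordinates at 22 (9.32%). The smallest p belonged to AN0870, a putative small-molecule transporter gene (chromosome VIII, 2216561–2217200), whose summit was at 2217011 and 2217001 at 2 d and at 2216871 in both 3 d lists, a difference of -135 ± 11.5 bp (SE, adjusted p = 0.189 by limma), away from the start of the gene. Its peak centre differed by 30 bp in the opposite direction.

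The largest difference was 710 bp, in one of the best-scored regions of all, chromosome V, 1615761–1616940, which has no tied gene. Its summit was at 1616491 and 1616691 at 2 d and at 1615871 and 1615891 at 3 d, while its width was between 1140 and 1180 bp, its percentile between 98.7 and 100, and its peak centre differed by 5 bp. The highest point thus lay at separate places within one broad peak, with adjusted p = 0.251 by limma. At AN0285, a putative 6-phosphogluconolactonase gene, the 3 d summits at 4025651 and 4025691 lay upstream of the 2 d summits at 4026031 and 4025941, a difference of -315 bp (chromosome VIII, adjusted p = 0.271 by limma). In the region next to *ypdA* the summits were at 2537911 and 2537891 at 2 d and at 2537691 and 2537651 at 3 d (difference -230 bp, adjusted p = 0.189 by limma). At *mstB*, a sugar transporter gene, the 2 d summits at 4063451 and 4063461 and the 3 d summit at 4063491 differed little, and 3 d replicate 2 alone was at 4063791. Differences at AN5624/AN5625 (-145 bp), chromosome VIII, 2716961–2717760 (180 bp), AN7892, a small heat-shock protein gene (105 bp), AN2817 (100 bp) and AN11477 (80 bp) had an adjusted p of 0.872 each by limma.

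The percentiles of the 5 best-scored regions, among them the region of chromosome V with the 710 bp summit difference, were between 96.3 and 100 in every list. That of *atfA* itself (chromosome VI, 2425601–2428120) stood at percentiles 100 and 99.8 at 2 d and 99.6 and 100 at 3 d, with widths of 2300, 2520, 2320 and 2400 bp. The tagged gene carries *atfA*'s promoter, so peaks on the native promoter and on the introduced copy cannot be told apart. Its summit was at 2426651 in 3 lists and at 2427361 in 3 d replicate 2. The region of *conF* and its neighbours AN8639, AN8641 and AN8642 (chromosome III, 3290901–3292540) stood between 99.4 and 99.8, that of *conJ* (chromosome III, 275381–276620) between 98.7 and 99.8, and that of *ccgA* (chromosome VIII, 174361–175320) between 96.3 and 99.6. One well-scored peak was not shared. The region of chromosome VI at 3007821–3008080, named here because its values stood out, was found in 2 d replicate 1 alone, at percentile 92.4.

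The listed genes of the conidium had peaks at both ages. All 10 genes of conidial and spore-protective proteins had a peak in all 4 lists, against 200 of the 418 tied genes (47.8%). As with the other gene lists, these members were chosen with earlier results of these data known, and the share depends on that choice. They include *conJ*, *conF*, the conidial catalase gene *catA* (95.3 and 97.2 at 2 d, 98.5 and 98.2 at 3 d), which shares its region with *cetJ*, and the spore genes SpoC1-C1C and SpoC1-C1D. Over their 9 regions the median difference in percentile was 1.67 points, against 0.88 over all regions, with 2 regions higher and 2 lower at 3 d without overlap (17.5% and 16.7% of all regions). The lowest of them at 3 d was *awh11*. *cetA* stood at 87.5 and 55.4 at 2 d and at 48.7 and 64.1 at 3 d, so that its ages overlapped.

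Stored carbohydrates and redox genes were the lists with a member at 2 d only among the untreated lists, 1 gene each. Of all 418 tied genes 11 were held at 2 d only, 12 at 3 d only and 200 in all 4 lists. Both MSB Tr. (3 d) lists had a peak at the regions of these 2 genes, *orlA* and *cycA*. Of the 4 tied genes of trehalose and polyol metabolism, *orlA* was held at 2 d only and the other 3 in all lists. The glycerol dehydrogenase gene *gldB* stood at 96.0 and 98.5 at 2 d and 93.3 and 94.8 at 3 d, and *gcnA* at 67.2 and 73.7 against 29.2 and 64.1. Both were lower in both 3 d lists, with differences of -3.18 and -23.9 points, and neither passed the test. Of all 263 regions 16.7% were lower and 17.5% higher in both 3 d lists. At *gldB* the peaks were wider in both 3 d lists, with 700 and 760 bp against 840 and 860 bp, as at 22.1% of all regions. Of the 5 tied redox genes, the thioredoxin gene *trxA* (16.8 and 17.7 against 36.6 and 30.5) was higher in both 3 d lists, and *mcr1* (42.4 and 41.5 against 17.6 and 48.8) overlapped. *cycA* was held at 2 d only. The superoxide dismutase gene *sodA*, at percentile 3.69 in 2 d replicate 2, and *aifA*, at 25.1 in 2 d replicate 1, were found in 1 list each.

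Of the 12 tied signalling genes 8 had a peak in all 4 lists, against 47.8% of all tied genes. *hogA*, the gene of the stress-activated MAP kinase, stood at 59.7 and 78.9 at 2 d and 77.5 and 65.0 at 3 d, with overlapping ages. *ypdA*, which acts upstream of it, and the phosphatase gene *ptpA* (94.9 and 89.1 against 72.2 and 82.2) were the 2 of these 8 that were lower at 3 d without overlap, and none was higher, where 16.7% and 17.5% of all 263 regions were. The histidine kinase genes *phkB* and hk-8-7 and the protein kinase A gene *pkaA* had wider peaks in both 3 d lists. At *phkB* they measured 300 and 380 bp at 2 d and 460 and 480 bp at 3 d. *ptpA* had narrower peaks in both 3 d lists, with 520 and 500 bp against 380 and 480 bp. Of all 263 regions 22.1% were wider and 9.89% narrower in this way. The histidine kinase gene hk-8-3 was missing from 2 d replicate 1 alone and stood at 43.2 at 2 d and at 73.8 and 74.6 at 3 d.

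Of 8 tied transcription regulator genes 2 were in all 4 lists, against 47.8% of all tied genes. These were *atfA* and the velvet regulator gene *velB*, which stood at 89.2 and 83.1 at 2 d and 94.4 and 97.4 at 3 d. *vadZ* was missing from 2 d replicate 2 alone. *atfB* and the forkhead gene *fkhB* were found in 1 list of each age. The velvet genes *veA* and *vosA* and the developmental regulator gene *flbD* were found in 1 list each, at percentiles of 6.03, 17.6 and 25.1. *atfB* and *vosA* were each tied to 2 regions, and only 1 of these is described here. The light-response genes were the opsin gene *nopA*, with 93.1 and 98.5 against 96.3 and 97.0, and the cryptochrome gene *cryA*, missing from 2 d replicate 2 and at 22.9 in 2 d replicate 1 against 53.4 and 42.7 at 3 d.

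Of 16 tied genes of carbon metabolism 8 were in all 4 lists, against 47.8% of all tied genes. None was held by both lists of one age and neither of the other, where 11 of all 418 tied genes were held so at 2 d and 12 at 3 d. *acuG* and *pgkA* were found in 2 d replicate 2 alone, at percentiles of 3.69 and 12.1. Among those of acetate and gluconeogenic metabolism, the isocitrate lyase gene *acuD* stood at 81.2 and 52.0 against 78.2 and 86.6, and the phosphoenolpyruvate carboxykinase gene *acuF* at 62.0 and 70.2 against 75.0 and 68.1. Both were wider in both 3 d lists, with 360 and 560 bp against 820 and 580 bp at *acuF*. So was *coaT*, with 400 and 480 bp against 520 and 640 bp, and 22.1% of all 263 regions were wider in this way. In percentile, *coaT* and the aldolase gene *fbaA* were higher in both 3 d lists, by 2.41 and 5.69 points. The atypical hexokinase-like gene *hxkB* was lower, at 49.5 and 48.4 against 38.5 and 37.1. Of all 263 regions 17.5% were higher and 16.7% lower in both 3 d lists. The citrate synthase gene *citA* ranged from 67.2 and 9.33 at 2 d to 1.90 and 26.6 at 3 d, with replicates as far apart as ages.

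Of 5 tied eisosome genes 3 were in all lists, with *pilA*, which encodes a core eisosome protein, at 98.3 and 93.3 against 92.5 and 93.3, and *nce102* at 80.4 and 79.7 against 86.5 and 83.7. Of 7 tied transporter and arrestin genes 5 were in all 4 lists. Those were *mstB*, the purine transporter gene *uapC*, the sodium pump gene *enaA*, *dicB* and *vcxA*. Peaks of *enaA* and *uapC* were wider in both 3 d lists, as were those of 22.1% of all 263 regions. Of 6 tied autophagy and ubiquitin genes *atg12* and *ubi1* were in all 4 lists, and of 3 tied histone and chromatin genes none was. Over all 418 tied genes 47.8% were in all 4 lists, and these gene lists are small.

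**Figure D5:**
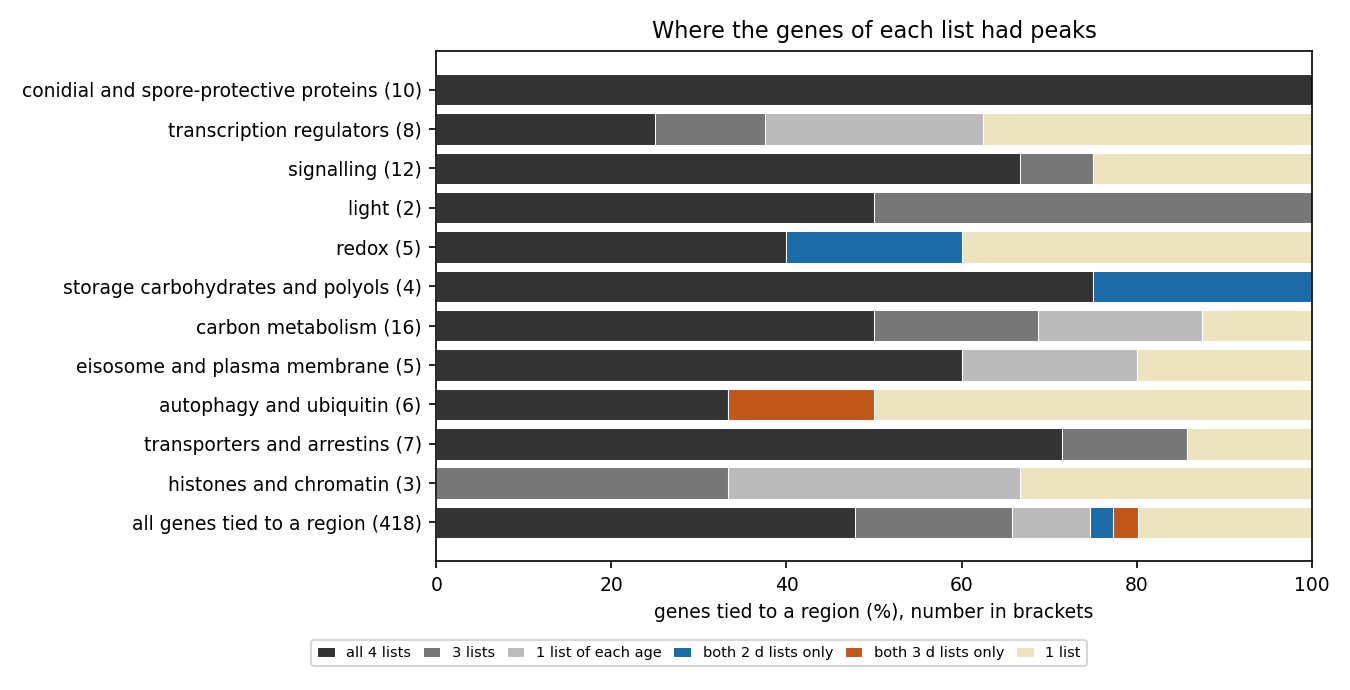
Share of the tied genes of each list (horizontal axis, %, number of genes in brackets) by the untreated lists that hold their region. All 10 conidial genes were in all 4 lists against 200 of all 418 tied genes. In the gene lists the blue parts are *cycA* and *orlA*, held at 2 d only among the untreated lists, as were 11 of all 418 tied genes. Members of the gene lists were chosen with earlier results of these data known, and the shares depend on that choice.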

How the data were processed

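Per the labels and the study's methods, the authors mapped single-end reads with Bowtie2 to the JGI MycoCosm assembly of *A. nidulans*. They discarded PCR duplicates using Picard, scaled the coverage to RPKM in deepTools and ran MACS2 library by library. No input or mock control is named in the sources used here. The deposited lists give, for each peak, its chromosome, start, end, a score in whole numbers and the offset of the summit. Positions are in steps of 20 bp, so that widths and summits are no finer than this. The columns kept for enrichment and significance hold 0 and were not used, and no total of reads is given.

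Scores were turned into percentiles within each deposited list, because the score of one list is not comparable with that of another, and start and end were the authors' values. Where a region held several peaks of a list, its best-scored peak gave the percentile, width and summit. Positions are printed 1-based. Genes were placed from the peak distances of the study's supplement and the gene order of RefSeq (ASM1142v1), whose coordinates were not used: 435 of 502 listed genes could be placed. Genes with 5 or more distances that all fitted a single place served as anchors, and all 120 that RefSeq names lay on the same chromosome there. All 120 were recovered when held out, but from the same distances, so this does not test the other genes. Genes with few distances are less certain. Among them are AN5512, AN6995/AN6996, AN2884 and AN9100 with 2 each, and AN5764, AN3210 and AN3022 with 3 each. Where a gene was tied to several regions, a single one stands for it here. Gene roles come from the annotation or textbook knowledge. The CRE content of regions was not analysed here.

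limma 3.58.1 (R 4.3.3) was fitted on the 4 libraries with age as the only term, over regions in all 4 lists for percentile and log2 width and over regions with 1 peak per list for summit position, with Benjamini-Hochberg adjustment over all regions fitted. The fit was also run on simulated data with normal noise of the same spread at every region. Real regions differ in spread, so that run does not show what the fit could detect here. Whole-list values were tested by exact permutation (scipy 1.17.1). Named regions were, by rule, up to 10 per age held by both lists of one age only, the 8 largest percentile, 5 largest width and 5 largest summit differences in each direction without overlap, the 5 best-scored regions and members of the gene lists. Members, lists and rules were chosen with earlier results of these data known. Alternatives were another overlap or merging distance, the 300 best peaks, other scales, a replicate block and leaving out each library. Replicate numbers were not used as a block in the tests reported.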

Additional observations from a re-analysis of the deposited data

How the results depend on the processing

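In all 27 fits of percentile, width and summit position, limma called 0 regions, and the smallest adjusted p over these fits was 0.0823, for the summit without 3 d replicate 1. Same-numbered libraries of the ages did not deviate together. Correlations of their deviations from the age means were 0.011 for log2 width and 0.0066 for summit. For percentile the correlation was -0.289, so there they leaned in opposite directions. With a replicate block the calls were also 0 (smallest adjusted p 0.842, 0.706 and 0.800), and with the crossed numbers, a fit added after the data had been seen, 0 again (0.531, 0.159 and 0.719). The difference in shared peaks within and between ages turned positive with the 300 best peaks of each list (1.54 points, exact permutation p = 0.333) and with the replicate block (0.575 points), and ranged from -5.80 to 4.20 points when a library was left out. Regions of both 2 d lists only ranged from 25 to 87 and those of both 3 d lists only from 45 to 82 when a library was left out, where fewer lists decide by construction, and from 10 to 14 and 14 to 20 under other merging, overlap or score limits. The median log2 width difference was 0.00604 after centring each list. With the peak centre in place of the summit, 4 of the 36 named differences turned: the region beside *ypdA* (50 bp), *mstB* (-90 bp), chromosome V, 1615761–1616940 (5 bp) and AN0870 (30 bp). The other 285 of 289 values of named differences kept their direction. This follows largely from the selection, because the named differences were chosen for having no overlap between ages. Leaving out a library or adding a block could not turn such a difference, so the count is no measure of robustness. Depth is unknown, so how far it limits the lists cannot be given.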

Other observations

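Peaks of the MSB Tr. (3 d) lists, which enter no test above, fell on the untreated regions as follows. Of the 263 regions held by all 4 untreated lists 255 had a peak in at least 1 MSB list and 250 in both. Of the 35 regions held by both 2 d lists and 1 of the 3 d lists 28 had one, and of the 69 held by both 3 d lists and 1 of the 2 d lists 59 had one. Among regions of a single untreated list, 27 of 69 had an MSB peak for 2 d replicate 1, 19 of 53 for 2 d replicate 2, 9 of 60 for 3 d replicate 1 and 15 of 32 for 3 d replicate 2. The lone region at percentile 92.4 in 2 d replicate 1 (chromosome VI, 3007821–3008080) had none.

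Regions missing from 1 untreated list were divided unevenly over the lists. There were 44 missing from 2 d replicate 2, 25 from 2 d replicate 1, 24 from 3 d replicate 1 and 11 from 3 d replicate 2. The best-scored of these with a tied gene were AN2404, missing from 2 d replicate 1 (mean percentile 70.5), *yop1*, missing from 3 d replicate 1 (63.9), AN1902, missing from 2 d replicate 2 (56.7), and *galD* with AN6183, missing from 3 d replicate 2 (47.6).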
